A study of Mus musculus with 12 samples.

Results

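The genes described here are 10 mouse genes around DNA methylation. The DNA methyltransferases Dnmt1, Dnmt3a and Dnmt3b and their partners Uhrf1 and Uhrf2 write or copy it. The dioxygenases Tet1, Tet2 and Tet3 and the glycosylase Tdg act in its removal, and Mgmt is an alkyl-transfer repair enzyme. The 10 genes were chosen by name, with earlier results of these data known. They were matched by symbol to the gene identifiers of the count table. All 10 were found among 49671 genes, and all 10 were among the 17812 genes that passed a filter on low counts. Total RNA from formalin-fixed, paraffin-embedded mouse brain was sequenced as 12 libraries, 3 in each of 4 groups. The tumour groups carry the tumour genotypes IDH1_R132H, IDH1WT and PDGFA in the labels, and the last group is normal brain. Every mouse carried floxed alleles that include Cdkn2a and Atrx. Tumour-bearing mice carried N::TVA, a transgene for TVA, the receptor of the avian viruses used to deliver genes, whereas the normal brains are labelled TVA negative. A floxed allele is lost only in cells that receive Cre recombinase, so host cells in a tumour keep it. The age of the mice and the vectors behind each tumour genotype were not found in the labels. Libraries of a group are numbered in record order, and the numbers pair nothing. Nothing in the labels says whether the libraries of a group came from separate mice, so the p-values measure the spread between these samples.

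DNA methylation in mammals is a methyl group on cytosine, mostly at CpG. DNMT3A and DNMT3B place new marks, and DNMT1, guided by UHRF1 to half-methylated DNA behind the replication fork, copies them to the new strand. TET enzymes oxidise the mark and TDG cuts out the oxidised forms for base excision repair, while MGMT takes alkyl groups off guanine. IDH1 R132H is a glioma mutation whose product, 2-hydroxyglutarate, inhibits TET enzymes at the protein level, and gliomas with it carry widespread CpG methylation. These libraries measured RNA only. The series set out to place the IDH1-mutant and wild-type tumours by glioma subtype. For these genes its design poses the question whether RNA levels differed between tumours and normal brain, and between tumours with mutant and wild-type IDH1.

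Total counts ran from 6507923 to 14277395 per library. Loci resembling ribosomal RNA took 45.7% of counts in IDH1_R132H library 3 and 1.65% to 17.5% in the other 11. PDGFA library 1 stood apart from the other tumours, with summed levels of 998 CPM (read counts scaled to a common library size) for 8 astrocyte markers, 25.6 CPM for 10 microglia and macrophage markers and 10900 CPM for 7 oligodendrocyte markers. No marker gene of the 7 cell type lists was at 0 in any library. The normal brains held neuron markers at 8070 to 8490 CPM, and the tumours, which overlapped them, at 4040 to 9320 CPM. Reads counted to Idh1, whose source was not tested, were at 52.2 to 70.7 CPM in IDH1_R132H, 39.1 to 56.3 CPM in IDH1WT, 22.2 to 46.7 CPM in PDGFA and 22.5 to 27.0 CPM in normal brain. Atrx reads were present in every tumour, at 212 to 299 CPM against 262 to 336 CPM in normal brain, and gene totals do not show which exons the reads came from.

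Between tumours and normal brain, 2 of the 10 genes rose and none fell. Uhrf1 rose 18.5-fold and Tet1 1.64-fold, and Dnmt1 was 1.55-fold higher with an adjusted p of 0.06 by edgeR's quasi-likelihood test with Benjamini-Hochberg adjustment. Of all genes tested, 5.22% were called in this comparison, 3.71% as higher and 1.5% as lower. All 10 genes had a fitted log2 fold change above 0, with a median of 0.21. The median over all genes was -0.01, and 48.7% of genes lay above 0. Values were small for Tet3 (0.03), Tet2 (0.07), Dnmt3a (0.09) and Tdg (0.11), and only the intervals of Dnmt1, Tet1 and Uhrf1 excluded 0. Tet2, Tet3, Tdg and Mgmt changed sign under alternatives in the closing section. By group against normal brain, 9 of the 10 lay above 0 in IDH1_R132H, 8 in IDH1WT and 9 in PDGFA. The genes were chosen with earlier results known, so these counts are a description only. Between all tumours and normal brain, 3 of the 10 genes had an unadjusted p under 0.05, against 23.6% of all genes. The levels of Dnmt1, Tet1 and Uhrf1 did not overlap between the 9 tumours and the 3 normal brains, with the tumours higher. Such separation was found for 4.67% of all genes with tumours higher and 2.84% with tumours lower, and none of the 10 was in the second set.

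**Figure D1:**
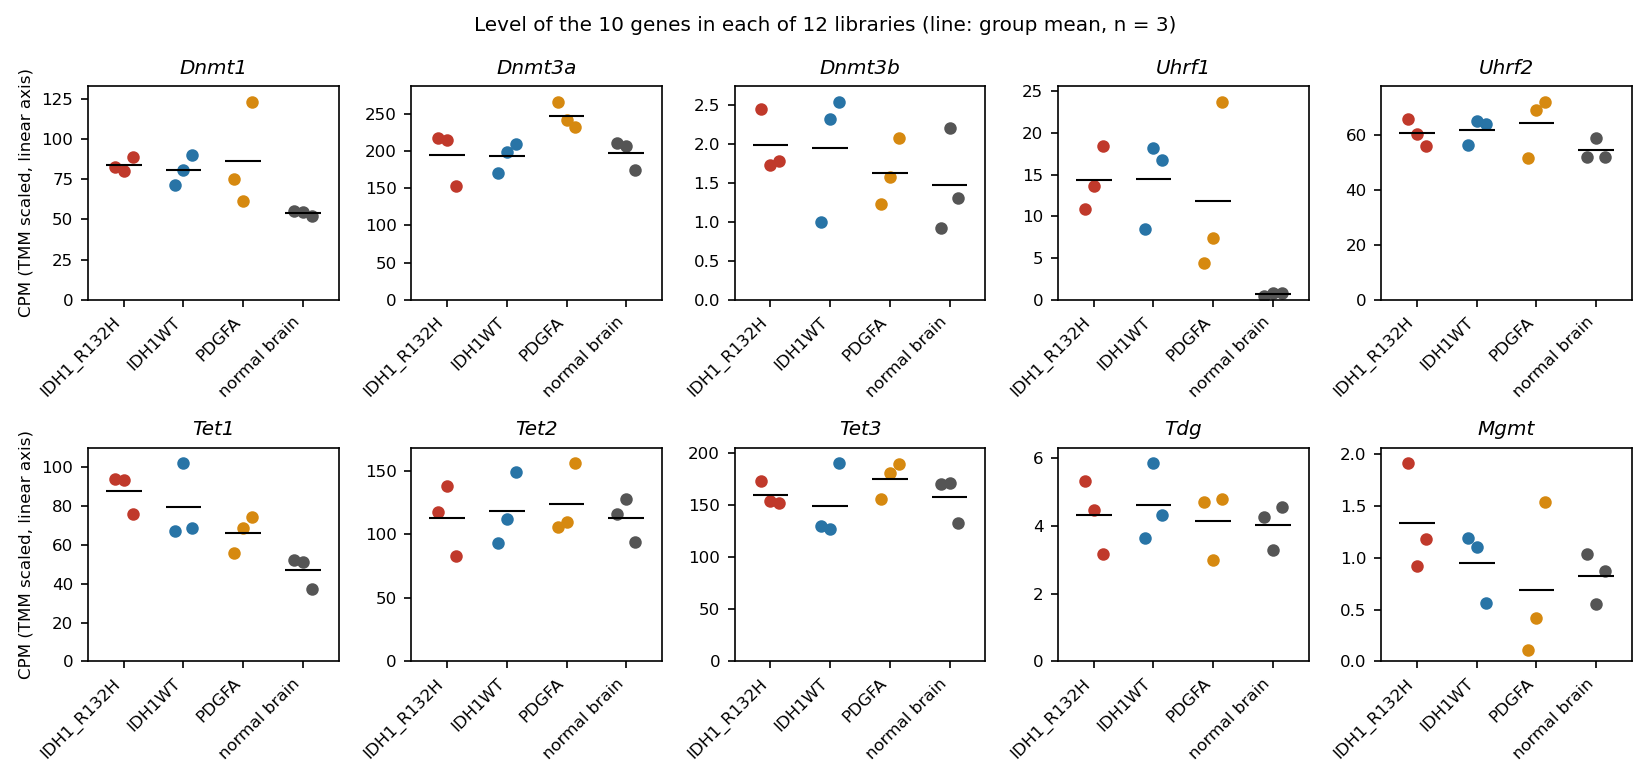
CPM on a linear axis (TMM scaled, from 0) for each of the 10 genes in every library; points are libraries and lines are group means (n = 3). Uhrf1 lies at 0.462 to 0.878 CPM in normal brain and 4.36 to 23.7 CPM in tumours, while Tet2, Tet3 and Tdg show groups that overlap.

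The methyltransferases differed in level. Dnmt1 (ENSMUSG00000004099, chr9:20907209-20959888 on GRCm38, minus strand), the maintenance enzyme, was at 82.5, 80.2 and 88.6 CPM in IDH1_R132H libraries 1 to 3. It was at 71.5, 80.5 and 90.0 CPM in IDH1WT, and at 75.2, 61.3 and 123 CPM in PDGFA. In normal brain Dnmt1 was at 54.9, 54.7 and 52.0 CPM. Every tumour was above every normal brain, the lowest tumour was PDGFA library 2, and the tumour groups overlapped one another. The log2 fold change of Dnmt1 for tumours against normal brain was 0.64 with a standard error (SE) of 0.18 and a 95% interval of 0.24 to 1.03. Its unadjusted p was 0.004 and its adjusted p 0.06 by edgeR, so it was not called. DESeq2 called it with an adjusted p of 0.012, and limma voom with quality weights for each library with one of 0.0019. By edgeR it was called at 0.03 with IDH1_R132H library 3 and PDGFA library 1 left out. It was also called without any 1 of the 3 PDGFA libraries. Without any 1 normal brain Dnmt1 was not called, at adjusted p-values of 0.2 to 0.23 by edgeR. Nor was it called by edgeR without any 1 IDH1_R132H library (0.075 to 0.1) or any 1 IDH1WT library (0.054 to 0.095). With limma on the deposited log2 values it was not called either (0.06).

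Dnmt3a (ENSMUSG00000020661, chr12:3806007-3914443, plus strand), which places new marks and is abundant in neurons, was at 217, 215 and 153 CPM in IDH1_R132H. It was at 171, 199 and 209 CPM in IDH1WT, 266, 241 and 232 CPM in PDGFA, and 211, 207 and 174 CPM in normal brain. The 3 PDGFA libraries were the 3 highest of all 12. Tumours and normal brain overlapped, with a Dnmt3a log2 fold change of 0.09 (SE 0.14, 95% interval -0.21 to 0.40). Against PDGFA, Dnmt3a was lower by a log2 fold change of -0.34 in IDH1_R132H (95% interval -0.71 to 0.03, adjusted p = 0.50) and of -0.35 in IDH1WT (95% interval -0.72 to 0.02, adjusted p = 0.85), and edgeR called neither. Separation of this kind without overlap held for 7.25% of all genes between IDH1_R132H and PDGFA, and for 4.0% between IDH1WT and PDGFA.

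Dnmt3b (ENSMUSG00000027478, chr2:153649450-153687730, plus strand), the other enzyme that places new marks, is best known from embryonic cells. It had 8 to 27 reads per library. Its levels were 1.73 to 2.45 CPM in IDH1_R132H, 0.994 to 2.54 CPM in IDH1WT, 1.23 to 2.08 CPM in PDGFA and 0.924 to 2.2 CPM in normal brain. All 4 groups overlapped. The Dnmt3b log2 fold change for tumours against normal brain was 0.32 with a 95% interval of -0.49 to 1.12, so a change of 2-fold upward was not excluded at this depth.

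Uhrf1 (ENSMUSG00000001228, chr17:56303321-56323486, plus strand), the reader of half-methylated DNA that brings DNMT1 to replicating chromatin, had the largest change of the 10. In normal brain it had 4, 8 and 9 reads, or 0.462, 0.878 and 0.788 CPM. IDH1_R132H libraries held 10.9, 13.6 and 18.4 CPM and IDH1WT libraries 8.48, 18.2 and 16.7 CPM. PDGFA libraries held 4.36, 7.38 and 23.7 CPM, the lowest and the highest tumour values both being in this group. No tumour came near the normal range, and within the tumours the 3 groups overlapped. The log2 fold change was 4.21 (SE 0.60, 95% interval 2.9 to 5.51), an 18.5-fold difference with an interval of 7.46 to 45.6, at an adjusted p of 0.011 by edgeR.

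Each tumour group held Uhrf1 above normal brain by edgeR. The log2 fold change was 4.29 in IDH1_R132H (adjusted p = 0.012), 4.3 in IDH1WT (adjusted p = 0.022) and 4.02 in PDGFA (adjusted p = 0.043). These comparisons share the 3 normal brains. In IDH1_R132H, Uhrf1 and Tet1 were the 2 of 10 called, where 7.17% of all genes were called, 4.83% as higher and 2.35% as lower. In IDH1WT, Uhrf1 was the 1 of 10 called, against 1.72% of all genes, 1.57% higher and 0.152% lower. In PDGFA, Uhrf1 was again the 1 of 10, against 0.303% of all genes, 0.258% higher and 0.0449% lower. At an unadjusted p under 0.05 there were 3 of 10 in each, namely Dnmt1, Tet1 and Uhrf1, against 25.7%, 18.9% and 10.6% of all genes in the same order. Leaving out any 1 normal brain ended the Uhrf1 call for all tumours, with log2 fold changes of 3.99 to 4.36 and adjusted p-values of 0.082 to 0.10, and at most 3 genes of all were then called. By group the Uhrf1 call was lost without any 1 normal brain, and also without IDH1_R132H library 2 in IDH1_R132H, without library 2 or 3 of IDH1WT in IDH1WT, and without IDH1WT library 3 or any 1 IDH1_R132H library in PDGFA. The PDGFA value for Uhrf1 was 3.03 without PDGFA library 3, and limma on the deposited log2 values did not call it. Marker genes of dividing cells moved with Uhrf1. Summed over 20 mitosis genes they were at 163 to 1080 CPM in tumours and 20.1 to 32.3 CPM in normal brain, and 17 of the 20 rose. All 6 oligodendrocyte precursor markers rose too, with sums of 276 to 4110 CPM against 165 to 179 CPM. Of 7 endothelial markers 4 rose, with sums of 174 to 298 CPM in tumours and 126 to 146 CPM in normal brain that did not overlap. Of 8 astrocyte markers 1 rose, and no neuron, oligodendrocyte or microglia and macrophage marker was called in either direction. Over all genes, 3.71% were called as higher in this comparison. The part of dividing, precursor or endothelial cells in the Uhrf1 difference was not tested, and in bulk tissue fewer cells of a type and less RNA per cell cannot be told apart.

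The 250 bases before the annotated starts are shown for Uhrf1 and its paralogue Uhrf2, because the first changed with the mitosis genes and the other did not pass the test. The sequences are from RefSeq on GRCm38.p6, 5′ to 3′ on the plus strand, without bases that lie in exons. Capitals mark E2F-type letters, the core of sites bound by the E2F factors that drive genes of DNA replication. The first Uhrf1 start has 234 such bases at chr17:56303087-56303320, the second has 250 at chr17:56304063-56304312, and Uhrf2 has 250 at chr19:30030263-30030512.
Uhrf1 upstream of start 1: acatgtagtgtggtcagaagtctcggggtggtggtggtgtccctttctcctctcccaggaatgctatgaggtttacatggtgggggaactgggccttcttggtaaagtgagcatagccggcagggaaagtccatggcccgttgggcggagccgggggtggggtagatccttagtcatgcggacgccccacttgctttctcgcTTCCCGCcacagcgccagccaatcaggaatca
Uhrf1 upstream of start 2: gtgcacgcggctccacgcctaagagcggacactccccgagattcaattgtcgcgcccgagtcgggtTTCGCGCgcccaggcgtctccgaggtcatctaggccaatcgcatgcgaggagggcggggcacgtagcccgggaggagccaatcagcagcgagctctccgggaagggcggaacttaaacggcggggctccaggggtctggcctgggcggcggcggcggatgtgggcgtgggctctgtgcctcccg
Uhrf2 upstream: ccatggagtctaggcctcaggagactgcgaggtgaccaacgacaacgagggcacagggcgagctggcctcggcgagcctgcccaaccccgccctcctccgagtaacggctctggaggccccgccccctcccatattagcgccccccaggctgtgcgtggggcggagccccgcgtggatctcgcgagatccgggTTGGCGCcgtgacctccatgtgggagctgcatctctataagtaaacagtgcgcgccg
The letters searched were TTCCCGC and its forms with CG, GC or GG in place of the middle CC, on both strands. At least 1 was held by 7.89% of the 32851 windows of 250 bases. Every form holds a CG, and the share over windows of like CpG content was not taken. A longer form with 1 more T in front was searched first and was found in 1.86%; the shorter form was chosen after that result was seen. Among the 10 genes the longer form was found before the second Uhrf1 start and the third Dnmt1 start, and not before Uhrf2. Uhrf1 held the letters 48 bases before its first start and 184 before its second, and Uhrf2 held them 57 bases before its start. Of 17 windows, from the 16 mitosis genes that were matched, 3 held them (17.6%), which is a description only. A match in letters describes the sequence only, and no binding was measured.

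Dnmt1 has 3 annotated starts, and the E2F-type letters were found before the third, at 219 and 158 bases. The sites are shown with their surroundings as 30 bases on the minus strand, at chr9:20952824-20952853 and chr9:20952763-20952792, with the reverse complement of the letters in capitals. Both lie in bases annotated as exon.
Dnmt1 site 219 bases before start 3: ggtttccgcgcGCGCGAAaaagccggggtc
Dnmt1 site 158 bases before start 3: gcaagatgccaGCGCGAAcagctccagccc
The windows of the other 7 genes held none of these letters. CpG density told the Dnmt1 starts apart: the ratio of observed to expected CpG was 0.126 before the first start, 0.38 before the second and 0.89 before the third, where the median over all windows was 0.373. Before the 2 Uhrf1 starts the ratio was 0.453 and 1.0, before Uhrf2 0.807, before Tet1 0.63 and before Tet2 1.19. Gene counts do not show which start was used.

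Uhrf2 (ENSMUSG00000024817, chr19:30030513-30093722, plus strand) is similar to UHRF1 in its domains. Its levels were 55.9 to 65.8 CPM in IDH1_R132H, 56.3 to 65.2 CPM in IDH1WT, 51.7 to 72.0 CPM in PDGFA and 52.1 to 58.8 CPM in normal brain. The groups overlapped, and the Uhrf2 log2 fold change for tumours against normal brain was 0.20 (SE 0.13, 95% interval -0.08 to 0.47, adjusted p = 0.37). Set per kilobase of exon, Uhrf1 made up 29.1% ± 9.38 (SD, n = 9) of the reads of the pair in tumours and 2.55% ± 0.684 (SD, n = 3) in normal brain, with Uhrf2 making up the rest. With the length of the longest transcript the Uhrf1 shares were 17.1% and 1.26%.

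**Figure D2:**
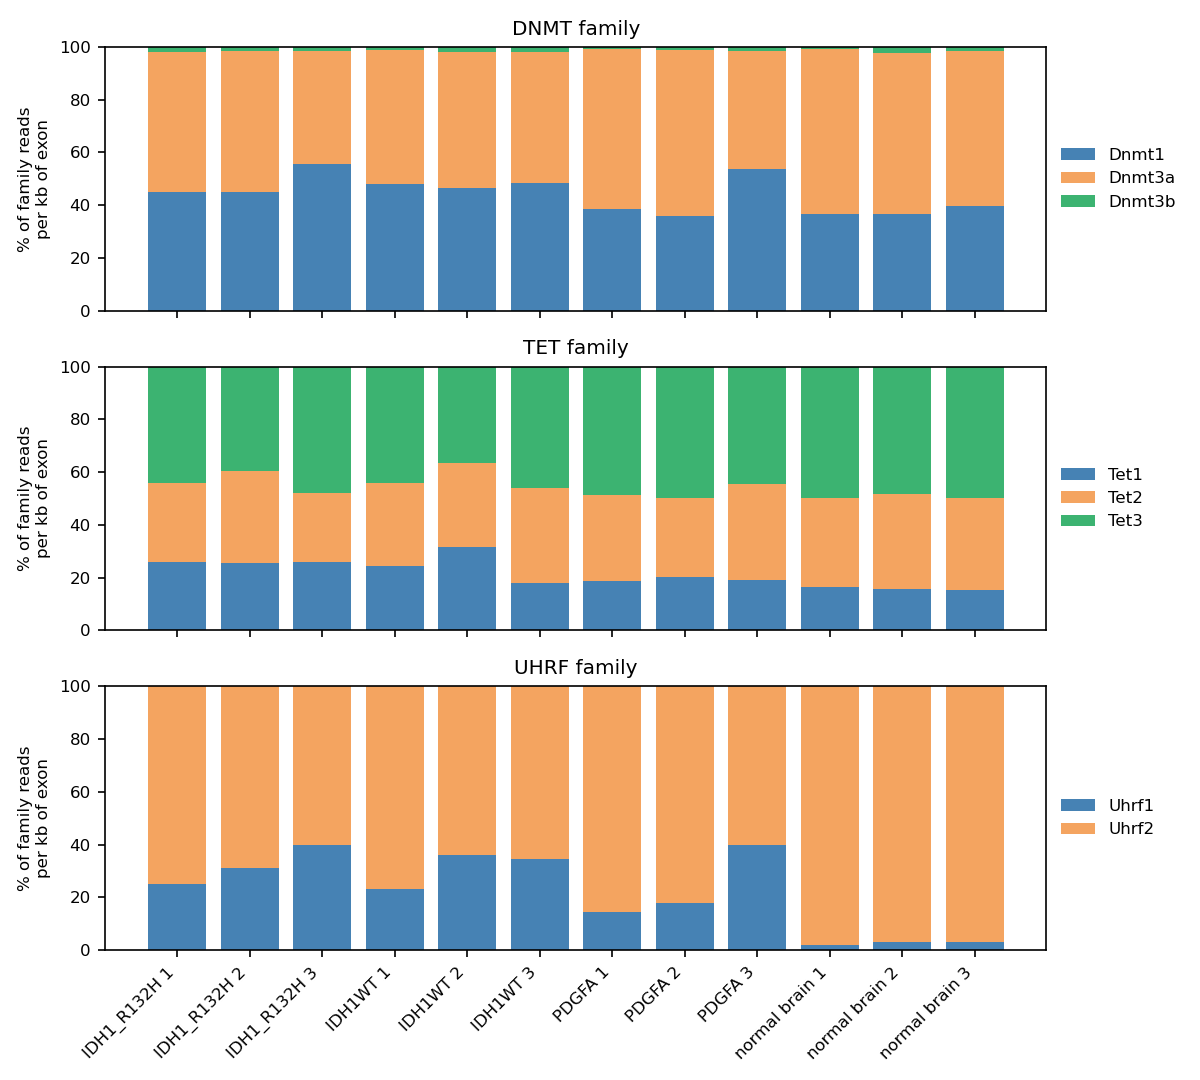
Share of each gene in its family's reads per kilobase of exon (percent, stacked to 100), by library. Uhrf1 takes 14.5% to 39.9% of the UHRF pair in tumours and 1.76% to 2.96% in normal brain; Tet1 takes 18.0% to 31.7% of the TET family in tumours and 15.2% to 16.6% in normal brain.

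Among the erasers, Tet1 was the member that changed. Tet1 (ENSMUSG00000047146, chr10:62804570-62908996, minus strand), a TET enzyme with a CXXC domain that binds CpG-rich DNA, was at 93.9, 93.2 and 76.0 CPM in IDH1_R132H. IDH1WT libraries held 67.2, 102 and 68.7 CPM, PDGFA libraries 55.7, 68.5 and 74.6 CPM, and normal brains 52.4, 51.3 and 37.5 CPM. All 9 tumours exceeded all 3 normal brains, though PDGFA library 1 only narrowly. The log2 fold change for tumours against normal brain was 0.72 (SE 0.17, 95% interval 0.34 to 1.09, adjusted p = 0.035), or 1.64-fold with an interval of 1.27 to 2.13. Without IDH1_R132H library 3 and PDGFA library 1 it was 0.79 with an adjusted p of 0.0085. The call was lost without IDH1_R132H library 1 or 2 (adjusted p = 0.054 and 0.067) and without any 1 normal brain (0.14 to 0.16).

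By group against normal brain, the Tet1 log2 fold change was 0.90 in IDH1_R132H (adjusted p = 0.025), 0.75 in IDH1WT (adjusted p = 0.075) and 0.50 in PDGFA (adjusted p = 0.39). The IDH1_R132H call was lost without its library 1 or 2 or any 1 normal brain, and Tet1 was called in IDH1WT without PDGFA library 1 or 3. Group means ran in the order IDH1_R132H at 87.7 ± 10.2 CPM, IDH1WT at 79.3 ± 19.7 CPM, PDGFA at 66.2 ± 9.65 CPM and normal brain at 47.0 ± 8.33 CPM (SD, n = 3 each). The first 2 of these, and the second and the third, did not differ beyond their spread. IDH1_R132H lay above PDGFA without overlap, as did 5.86% of all genes, with a log2 fold change of 0.41 (95% interval -0.03 to 0.84, adjusted p = 0.49 by edgeR). Within the TET family and per kilobase of exon, Tet1 made up 23.3% ± 4.58 (SD, n = 9) of reads in tumours and 15.8% ± 0.71 (SD, n = 3) in normal brain.

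Tet2 (ENSMUSG00000040943, chr3:133463679-133545139, minus strand), which lacks a CXXC domain of its own, was at 83.1 to 138 CPM in IDH1_R132H, 93.4 to 149 CPM in IDH1WT, 106 to 156 CPM in PDGFA and 94.1 to 128 CPM in normal brain. Tet3 (ENSMUSG00000034832, chr6:83362373-83459084, minus strand), the most abundant of the 3 per kilobase, was at 152 to 173, 127 to 190, 156 to 189 and 133 to 171 CPM in the same order of groups. Both genes overlapped across all groups. Their log2 fold changes for tumours against normal brain were 0.07 (95% interval -0.35 to 0.49) for Tet2 and 0.03 (95% interval -0.30 to 0.35) for Tet3, and both intervals exclude a 2-fold change in either direction.

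Tdg (ENSMUSG00000034674, chr10:82629828-82650799, plus strand), the glycosylase that acts after the TET enzymes, had 16 to 55 reads per library. Its group ranges were 3.16 to 5.32 CPM in IDH1_R132H, 3.64 to 5.85 CPM in IDH1WT, 2.98 to 4.8 CPM in PDGFA and 3.29 to 4.55 CPM in normal brain. These overlapped throughout, and the Tdg log2 fold change for tumours against normal brain was 0.11 (95% interval -0.43 to 0.65). Mgmt (ENSMUSG00000054612, chr7:136894614-137130266, plus strand), whose promoter methylation is read in the clinic for glioma patients given alkylating drugs, had 1 to 18 reads per library. It was at 1.91, 0.916 and 1.18 CPM in IDH1_R132H, 1.19, 1.1 and 0.565 CPM in IDH1WT, 0.112, 0.414 and 1.54 CPM in PDGFA and 1.04, 0.549 and 0.875 CPM in normal brain. The single read was in PDGFA library 1, with an exact Poisson interval of 0.0253 to 5.57 reads. The Mgmt log2 fold change for tumours against normal brain was 0.23 with an interval of -0.98 to 1.44, so a 2-fold rise was not excluded at this depth. The spans of Tdg, Dnmt3a, Dnmt3b, Tet2 and Tet3 overlap genes annotated on the opposite strand (Glt8d2, Dnmt3aos, Dnmt3bos, Gm42567 and B230319C09Rik). Those of Mgmt (Gm45280), Tet3 (Mir6374 and 5430434F05Rik), Dnmt1 (Mir7081) and Tet1 (Gm26479) overlap genes on the same strand. Overlap of exons was not examined, and the strand setting of the counting was not found in the labels. Some reads of these genes may therefore not be told apart.

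Between tumours with mutant and wild-type IDH1, none of the 10 genes was called, and 0.0% of all genes were. By edgeR 0 of the 10 had an unadjusted p under 0.05, against 2.67% of all genes, and DESeq2 and limma voom also called 0 of the 10. No gene of the 10 separated these 2 groups without overlap, while 2.96% of all genes lay higher and 3.79% lower in IDH1_R132H. The log2 fold changes of IDH1_R132H against IDH1WT ran from -0.07 for Tdg to 0.47 for Mgmt, with a median of 0.03, and 6 of 10 lay above 0. The TET genes, whose enzymes are targets of 2-hydroxyglutarate, gave 0.15 for Tet1 (95% interval -0.29 to 0.58), -0.06 for Tet2 (-0.58 to 0.45) and 0.10 for Tet3 (-0.30 to 0.49). The maintenance pair gave 0.05 for Dnmt1 (-0.41 to 0.52) and -0.02 for Uhrf1 (-1.11 to 1.07). The remaining values were 0.01 for Dnmt3a (-0.36 to 0.38), 0.05 for Dnmt3b (-0.91 to 1.01), -0.03 for Uhrf2 (-0.35 to 0.30), -0.07 for Tdg (-0.73 to 0.59) and 0.47 for Mgmt (-0.96 to 1.90). For 7 of the 10 genes the interval excludes a 2-fold change in both directions, and for Dnmt3b, Uhrf1 and Mgmt it does not.

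**Figure D3:**
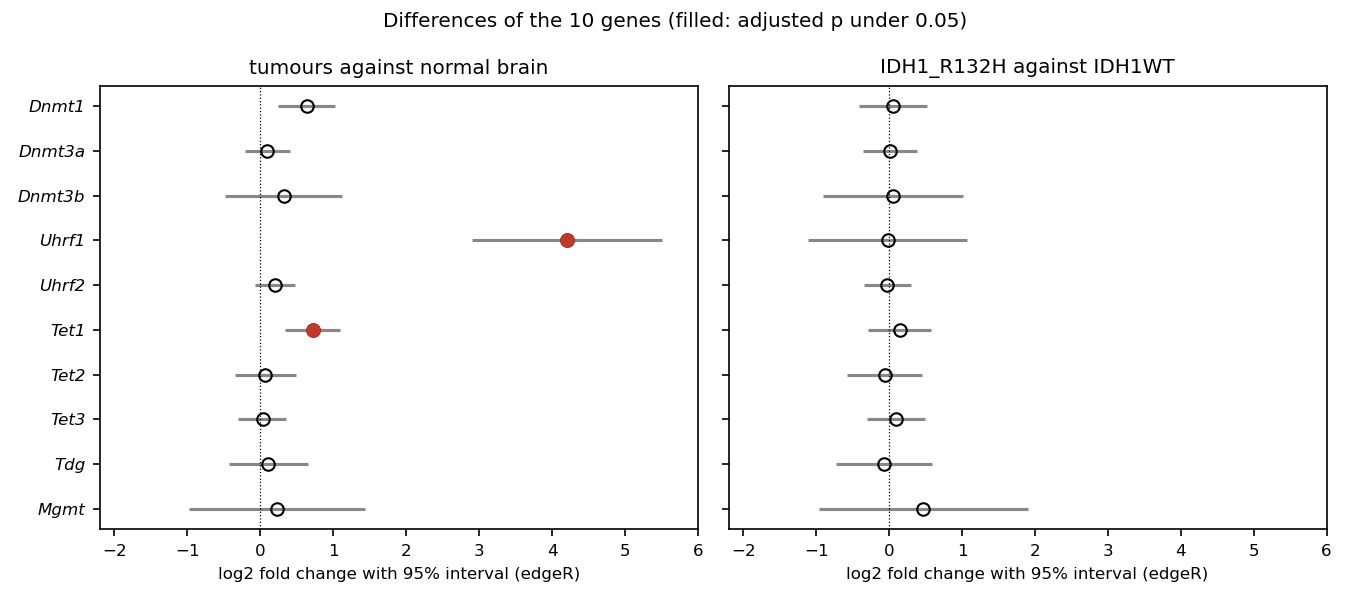
Log2 fold change of each gene with its 95% interval (edgeR), in 1 panel for all tumours against normal brain and in the other for IDH1_R132H against IDH1WT; filled points have an adjusted p under 0.05. Uhrf1 at 4.21 and Tet1 at 0.72 are filled in the first panel, and every interval in the second crosses 0.

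The other comparisons between tumour groups gave 0 called genes among the 10, and 0.0% of all genes, by edgeR. None of the 10 had an unadjusted p under 0.05 in IDH1_R132H against PDGFA (10.9% of all genes), in IDH1WT against PDGFA (5.83%) or in IDH1_R132H against the other tumours together (6.44%). None of the 10 lay wholly above or below the other tumours in IDH1_R132H, against 1.01% and 1.31% of all genes. DESeq2 and limma voom called 0 of the 10 in each. Mgmt had the widest gap of the 10 between IDH1_R132H and PDGFA, at a log2 fold change of 0.90 with an interval of -0.57 to 2.38 and groups that overlapped. It ran from 0.44 without PDGFA library 1 to 2.2 without PDGFA library 3.

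Per kilobase of exon and over the 12 libraries, the order of levels was Dnmt3a at 12.5 CPM per kilobase, Dnmt1 at 10.3, Tet3 at 9.61, Uhrf2 at 7.01, Tet2 at 6.94, Tet1 at 4.53, Uhrf1 at 2.42, Tdg at 0.797, Dnmt3b at 0.345 and Mgmt at 0.328. Of the 9 neighbouring pairs, 5 differed by no more than the larger SD over libraries: Dnmt3a and Dnmt1, Dnmt1 and Tet3, Uhrf2 and Tet2, Uhrf1 and Tdg, and Dnmt3b and Mgmt. With the length of the longest transcript in place of all exon bases, Uhrf2 came second at 17.0 and Dnmt1 at 13.0 came behind Tet3 at 14.7. Dnmt1 made up 46.4% ± 6.34 (SD, n = 9) of DNMT reads per kilobase in tumours and 37.6% ± 1.82 (SD, n = 3) in normal brain. The 2 ranges overlapped, since PDGFA library 2 was at 36.0% and the normal brains at 36.6% to 39.7%.

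The genes also varied among the tumours, and Uhrf1 did so most closely with the mitosis genes. A mitosis score was the mean over the 20 mitosis genes of log2 CPM, centred gene by gene on all 12 libraries, and a neuron score was made likewise from 12 neuron genes. Over the 9 tumours Uhrf1 correlated with the mitosis score at Pearson r = 0.96 (exact permutation p = 5.5e-05, adjusted p = 0.0011 over 20 relations) and Spearman rho = 0.90 (exact permutation p = 0.002, adjusted p = 0.041). Without PDGFA libraries 1 and 3, the 2 farthest from the median score, r was 0.92 (exact permutation p = 0.0081), and with each group's mean removed it was 0.99. Dnmt1 gave r = 0.71 (exact permutation p = 0.027, adjusted p = 0.13) and rho = 0.72 (exact permutation p = 0.037, adjusted p = 0.15), and r = 0.63 without those 2 libraries. Tet1 gave r = 0.47 (exact permutation p = 0.20, adjusted p = 0.30) and rho = 0.53 (exact permutation p = 0.15, adjusted p = 0.27) with the mitosis score. Uhrf1 was the 1 relation of 20 that passed.

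**Figure D4:**
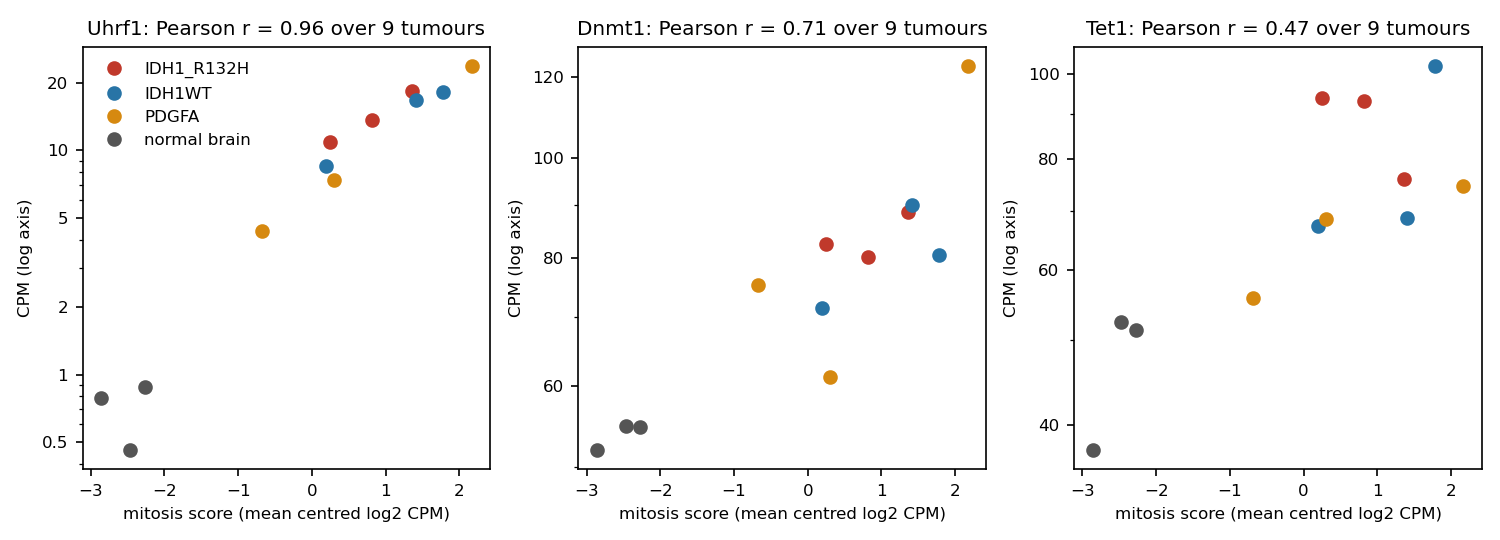
CPM (log axis) of Uhrf1, Dnmt1 and Tet1 against the mitosis score (mean centred log2 CPM of 20 genes), 1 point per library, coloured by group. Over the 9 tumours r is 0.96 for Uhrf1, 0.71 for Dnmt1 and 0.47 for Tet1; the normal brains lie at scores of -2.86 to -2.27.

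With the neuron score, Tet1 gave r = -0.76 (exact permutation p = 0.019, adjusted p = 0.12) and rho = -0.75 (exact permutation p = 0.025, adjusted p = 0.15). Uhrf2 gave r = -0.81 (exact permutation p = 0.0098, adjusted p = 0.098) and rho = -0.75 with the same p-values as Tet1. Negative values were not particular to these genes. They were -0.67 for Dnmt3b, -0.64 for Mgmt, -0.63 for Uhrf1, -0.62 for Tet2 and -0.62 for Tdg (exact permutation, adjusted p = 0.16 each). Dnmt1 gave -0.42, Dnmt3a -0.11 and Tet3 -0.096, and no relation with the neuron score passed. Without IDH1WT library 2 and PDGFA library 1, the farthest from the median, r was -0.47 for Tet1 and -0.74 for Uhrf2. On the same libraries it was -0.85 for Tdg, -0.82 for Tet2, -0.51 for Dnmt3b, -0.38 for Mgmt and -0.28 for Uhrf1. With group means removed r was -0.91 for Tet1 and -0.87 for Uhrf2. Values centred by group cannot be exchanged freely between groups, so no p is given for these.

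Genes whose log2 CPM ran most like each of the 10 over the 12 libraries were taken from 10117 tested genes, as a description. Each r pools tumours and normal brains, so the gap between them enters it. For Uhrf1 the genes were Top2a (r = 0.997, and 0.977 over the 9 tumours alone), Cenpf (r = 0.989) and Knl1 (r = 0.985). These act in chromosome separation, and Top2a and Cenpf are on the mitosis list. For Dnmt1 the genes were Akap12 (r = 0.974, and 0.944 over the 9 tumours alone), Lig1 (r = 0.965) and Ssrp1 (r = 0.963). Lig1 is the ligase of replication and Ssrp1 a histone chaperone subunit. For Tet1 they were Rcn1 (r = 0.97), Atf7ip (r = 0.97) and Pkd2 (r = 0.967). The highest values for the others were 0.946 for Tet2 with Arhgap17, 0.887 for Tet3 with Bdp1, 0.919 for Dnmt3a with Pabpn1, 0.851 for Dnmt3b with Exoc5, 0.932 for Uhrf2 with N4bp2, 0.876 for Tdg with Ntn4 and 0.91 for Mgmt with Unc119b.

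Of 65 further genes around DNA methylation, 63 were tested and 8 rose in tumours against normal brain, while none fell. Of all genes, 3.71% were called as higher and 1.5% as lower. The lists were chosen with earlier results of these data known, so the count beside those shares is a description only. The maintenance partners held 4 of the 8, from 8 tested of 10, with a list median log2 fold change of 1.18. These were Cdca7l (log2 fold change 2.34, adjusted p = 0.021), Cdca7 (1.84, adjusted p = 0.022) and Hells (1.32, adjusted p = 0.031), of which CDCA7 and HELLS form a chromatin remodeller needed for methylation, and Lig1 (1.24, adjusted p = 0.042). Hells was at 9.84 to 27.8 CPM in tumours and 4.81 to 9.47 CPM in normal brain, and Lig1 at 9.7 to 31.8 against 6.91 to 9.33 CPM. Neither gene overlapped between the 2 sets, as was found for 4.67% of all genes with tumours higher.

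In base excision repair 1 of 14 rose, against 3.71% of all genes. This was Neil3, a glycosylase for oxidised bases, with a log2 fold change of 4.26 (95% interval 2.57 to 5.94, adjusted p = 0.017), at 1.45 to 9.7 CPM in tumours and 4, 2 and 1 reads in normal brain. With 1 library left out it ran from 3.79 to 4.93, the second without normal brain library 1. Ung (0.98, adjusted p = 0.15), Parp1 (0.33, adjusted p = 0.19) and Neil1 (-0.47, adjusted p = 0.27) did not pass. In the methyl donor and folate cycle 2 of 15 rose (3.71% of all genes), Shmt1 (1.61, adjusted p = 0.033) and Tyms (1.57, adjusted p = 0.049), which passes folate carbon to thymidylate rather than to methylation, while Shmt2 (0.73, adjusted p = 0.14) did not pass. In alkylation and mismatch repair 1 of 9 rose (3.71% of all genes), the exonuclease Exo1 (2.49, adjusted p = 0.045). It had 7, 13 and 2 reads in normal brain, and its value ran from 1.97 without normal brain library 3 to 3.22 without library 2. Msh6 (0.48, adjusted p = 0.20), Alkbh2 (-0.57, adjusted p = 0.44) and Alkbh3 (-0.23, adjusted p = 0.44) did not pass.

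None of 10 methyl-CpG readers was called, with 1 at an unadjusted p under 0.05, Zbtb4 (log2 fold change -0.43, adjusted p = 0.12 by edgeR). Over all genes 5.22% were called and 23.6% had such a p. The other readers with the smallest p were Zbtb33 (0.29), Mbd5 (-0.16) and Mbd2 (0.19), and the list's median was -0.03. None of 7 TET partners and GADD45 genes was called (5.22% of all genes) and 0 had an unadjusted p under 0.05 (23.6%). Gadd45g stood at 1.01 (adjusted p = 0.23), Gadd45b at 0.47, Cxxc5 at 0.14 and Ogt, which binds TET proteins, at -0.05. All 8 genes called in these lists lost the call without any 1 normal brain. Lig1, Exo1 and Tyms also lost it without any 1 IDH1_R132H library or without IDH1WT library 2 or 3, Shmt1 without IDH1_R132H library 2 or IDH1WT library 2 or 3, and Hells without IDH1_R132H library 2. The calls of all 8 held without IDH1_R132H library 3 and PDGFA library 1 together. The summed mitosis markers given beside Uhrf1 were also higher in tumours than in normal brain. A relation of these 8 genes to the mitosis score was not tested. Between tumour groups none of the 63 genes was called by edgeR.

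**Figure D5:**
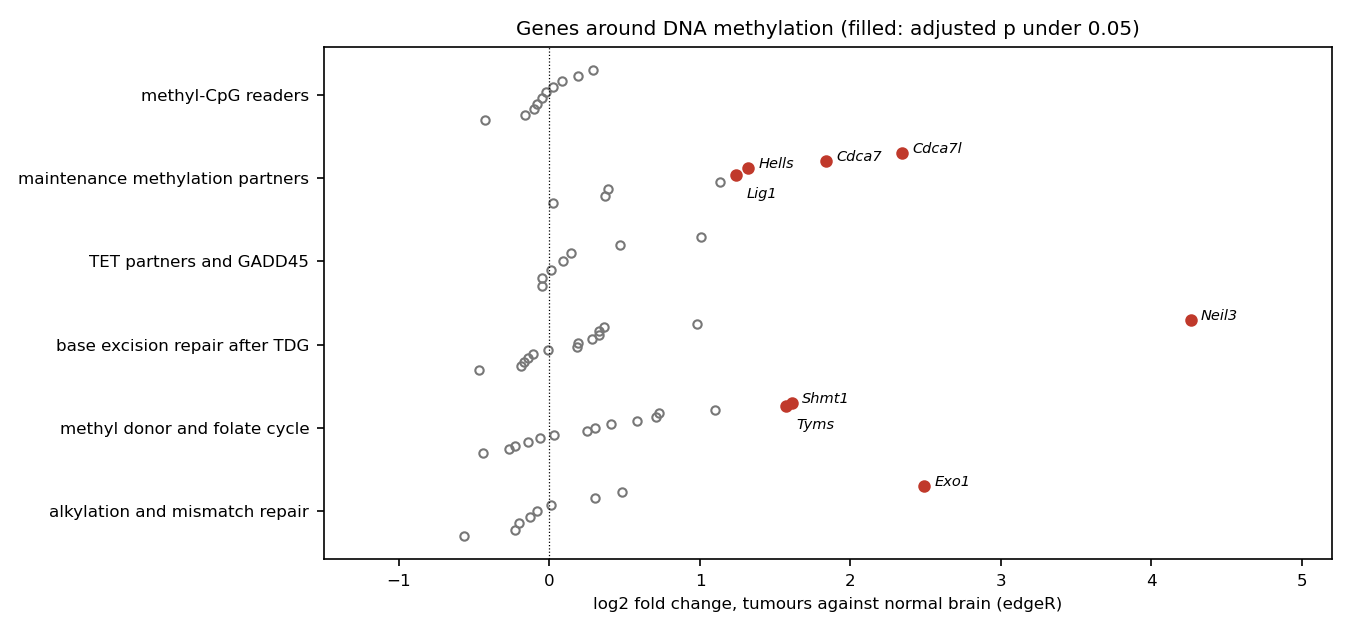
Log2 fold change (tumours against normal brain, edgeR) of 63 tested genes in 6 lists; 1 point per gene, filled where the adjusted p is under 0.05. The 8 filled points all lie above 0, with Neil3 at 4.26 the farthest and Lig1 at 1.24 the nearest.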

How the data were processed

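The tools that the submitters' processing notes name are STAR 2.5.2b, featureCounts 1.5.1 of Subread, and DESeq2 1.16.1, with the build GRCm38. The authors deposited raw read counts per gene for 49671 genes and log2 values (regularized log) for 23792, the second used only as an alternative. Strand setting and treatment of multiply matching reads were not found in the labels. Symbols and coordinates came from GENCODE M21, which named 49412 genes, and sequences from RefSeq, where all 10 genes matched. Counts were kept with filterByExpr (minimum 10, total 15), scaled with TMM and fitted with edgeR 4.0.16 (quasi-likelihood, robust, 1 coefficient per group, 12 libraries) in R 4.3.3. TMM sets the typical gene to no change. A gene was called where its p, adjusted by Benjamini-Hochberg over the 17812 genes tested, was under 0.05. Standard errors are the log2 fold change divided by the root of F. Over all genes their median was 0.23 with tumours set against normal brain, and 0.286 between IDH1_R132H and IDH1WT. DESeq2 1.42.0, limma 3.58.1 and the other alternatives are in the closing section. Limma voom was run with quality weights throughout, which give each library its own weight. Correlations used log2 CPM with a prior count of 2 and all 362880 orders of the tumours. The fit was also run on simulated counts with known changes. The outcome is not given here, and no result above rests on it. Scripts ran in Python 3.11.15 with scipy 1.17.1. Named further genes are the 4 of each list with the smallest p for tumours against normal brain, and the 3 genes most like each of the 10 among those with a mean log2 CPM of at least 3. The 10 genes and the lists were chosen with earlier results of these data known. An allele in the labels and some genes are not reported here.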

Additional observations from a re-analysis of the deposited data

How the results depend on the processing

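No paired analysis was possible because the replicate numbers are record order and pair nothing. Between tumour groups 0 of the 10 genes was called under every alternative. In tumours against normal brain, 0 to 3 were called when each library was left out in turn, with 0 without any 1 normal brain. The same range was 0 to 3 for IDH1_R132H, 0 to 3 for IDH1WT and 0 to 1 for PDGFA against normal brain. For IDH1WT against normal brain the count was 2 with DESeq2, 3 with limma voom and 2 without IDH1_R132H library 3 and PDGFA library 1. For PDGFA against normal brain it was 0 with limma on the deposited regularized log2 values. Of the score relations, 1 to 2 passed with each tumour left out.

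Counts of all genes called moved more. For tumours against normal brain, 929 became 2084 with DESeq2, 6005 with limma voom, 2204 without the filter, 2928 without those 2 libraries and 0 to 2536 with 1 library left out. For IDH1_R132H against IDH1WT, 0 became 79 without the filter, and for IDH1_R132H against PDGFA it became 146 with DESeq2, 396 with limma voom and 627 without the filter, 1 without those 2 libraries and 0 to 43 with 1 library left out. For IDH1_R132H against the other tumours it became 24, 245 and 278 in the order DESeq2, limma voom and no filter, and 0 to 1 with 1 library left out. For IDH1WT against PDGFA, 0 became 12 with DESeq2 and 261 without the filter, which moved the median log2 fold change of all genes from -0.011 to 0.136, and 3 without those 2 libraries. Against normal brain, with DESeq2, limma voom, no filter and without those 2 libraries in that order, 1278 genes for IDH1_R132H became 2438, 7320, 2468 and 2167. For IDH1WT 307 became 1272, 3008, 1555 and 1300, and for PDGFA 54 became 484, 436, 958 and 970. With limma on the deposited log2 values the IDH1WT count was 113 and the PDGFA count 0. With 1 library left out these 3 counts started at 0 and reached 2303, 1090 and 828. The cause was not tested.

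The following values changed sign. With limma voom the log2 fold change of tumours against normal brain was -0.01 for Tet3 and -0.08 for Mgmt, and that of IDH1_R132H against IDH1WT was 0.01 for Tet2, -0.03 for Dnmt1, -0.03 for Dnmt3b and 0.05 for Tdg. Without the 2 libraries it was 0.11 for Tet2, 0.03 for Uhrf2 and 0.1 for Tdg, and for Uhrf1 it was 0.01 without the filter and 0.01 with the deposited log2 values. With 1 library left out, tumours against normal brain ran from -0.05 to 0.17 for Tet2, -0.09 to 0.08 for Tet3, -0.03 to 0.2 for Tdg and -0.21 to 0.41 for Mgmt. IDH1_R132H against IDH1WT ran from -0.24 to 0.15 for Tet2, -0.003 to 0.32 for Tet3, -0.02 to 0.15 for Dnmt1, -0.07 to 0.16 for Dnmt3a, -0.28 to 0.32 for Dnmt3b, -0.28 to 0.18 for Uhrf1, -0.08 to 0.03 for Uhrf2 and -0.24 to 0.13 for Tdg. Pearson r with the mitosis score ran from -0.14 to 0.45 for Tet3, -0.56 to 0.01 for Dnmt3a and -0.01 to 0.38 for Tdg, and with the neuron score from -0.52 to 0.1 for Tet3 and -0.63 to 0.29 for Dnmt3a. With the length of the longest transcript, the family share in tumours and normal brain was 39.1% and 30.8% for Dnmt1, 16.5% and 10.9% for Tet1, and 17.1% and 1.26% for Uhrf1. Depth limited Mgmt, Dnmt3b and Tdg, and Uhrf1 in normal brain.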

Other observations

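Cxxc5, a CXXC-domain protein of the TET partner list, was named after its values were seen. It was at 92.5, 101 and 93.7 CPM in IDH1_R132H, 72.7, 84.5 and 68.5 CPM in IDH1WT and 88.8, 57.3 and 62.4 CPM in PDGFA, with every IDH1_R132H library above every other tumour, as for 1.01% of all genes. Normal brains held 65.5, 69.1 and 82.0 CPM. For IDH1_R132H against the other tumours the log2 fold change was 0.40 with an adjusted p of 0.71 by edgeR and 0.57 by DESeq2, and 0.53 with an adjusted p of 0.044 by limma voom. Against IDH1WT alone it was 0.35 (unadjusted p = 0.069, adjusted p = 1.0 by edgeR).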
